A study of Homo sapiens with 5 samples.

Results

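The IFITM cluster on the short arm of chromosome 11 and BST2 on chromosome 19 encode small membrane proteins, most of which act on enveloped viruses at the cell's own membranes. IFITM1, IFITM2, IFITM3, IFITM5 and BST2 were examined in the H3K27ac ChIP-seq data of HCT116 cells given interferon beta (IFN-β). A peak was counted to them when its center was at most 10 kb away from an annotated start (GENCODE release 44, GRCh38) of any of the 5 genes. The table of 20087 peaks holds 4 such peaks. All 4 lie in the IFITM cluster, and the table holds no peak within 10 kb of a BST2 start.

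HCT116 is an epithelial line grown from a human colorectal carcinoma. All samples came from HCT116 CMV-osTIR1 RAD21-mAC, a derivative in which the auxin receptor osTIR1 is expressed from a CMV promoter and the cohesin subunit RAD21 carries a degron tag, and all cells were kept in 0.1% DMSO for 6 h. There were 2 H3K27ac libraries from cells then given 1000 unit/ml IFN-β for 60 min, 2 from unstimulated control cells, which the labels place at 0 min, and 1 input library. The effect of IFN-β and of those 60 min in culture cannot be told apart. Of the labelled cell type, 5 of 6 epithelial marker genes had a peak within 10 kb, with an unstimulated log2 signal of 7.10 at EPCAM, 6.52 at KRT18, 6.23 at KRT8, 5.37 at CDX2 and 4.48 at CDH1, the last below the median of all peaks (5.04), while VIL1 had none. Of 5 fibroblast and hepatocyte markers, 2 had a peak (APOA2 at 3004 bp from a start with a signal of 4.35, and COL1A1 at 199 bp with 5.24), and COL1A2, DCN and ALB had none. The leukocyte genes PTPRC and CD3E also had none.

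Acetylation of histone H3 at lysine 27 (H3K27ac) marks active promoters and enhancers. After IFN-β binds its receptor, the complex ISGF3, which contains STAT2 and IRF9, binds interferon-stimulated response elements near the start sites of target genes. IFITM1, IFITM2 and IFITM3 hinder the fusion of viral with cellular membranes, IFITM1 mainly at the cell surface and IFITM2 and IFITM3 mainly in endosomes. IFITM5 is a bone protein of the same family, known from osteoblasts. BST2, also called tetherin, holds budding virions on the surface of the infected cell.

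The core of the response element was searched for as GAAANNGAAA on both strands. Binding of ISGF3 was not measured here, so a core is a match of sequence only. RefSeq promoter entries (GRCh38.p14), from 250 bases before to 50 bases after a gene's start, were matched for IFITM1, IFITM3, IFITM5 and BST2 but not for IFITM2. IFITM1, IFITM3 and BST2 each held 2 cores in this window and IFITM5 held 0. Of 35116 RefSeq promoters of this length, 3.57% held a core. The 30-base sites below are written on the strand of the gene, with the GAAA letters of each core in capitals.
IFITM1, chr11:313990-314019, + strand: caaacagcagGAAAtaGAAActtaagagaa
IFITM1, chr11:314024-314053, + strand: acacttctgaGAAActGAAAcgacagggga
IFITM3, chr11:320885-320914, - strand: agGAAAagGAAActgttgaGAAAccGAAAc
BST2, chr19:17405738-17405767, - strand: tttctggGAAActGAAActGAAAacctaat

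Counted from the RefSeq start, which is position 1, the IFITM1 cores span -40 to -31 and -6 to 4, and both fall in 5′ untranslated exons of alternative IFITM1 transcripts. The IFITM3 cores span -52 to -43 and -35 to -26, outside any exon of IFITM3. The BST2 cores overlap each other, at -130 to -121 and -124 to -115, in sequence that is also annotated as exon of BISPR, a long noncoding RNA transcribed away from BST2. The second IFITM1 core and both BST2 cores have the same letters, GAAACTGAAA. The sequence before IFITM1 and IFITM3 is shown because the genes are close relatives. The IFITM1 stretch (207 bases) lies downstream of the first exons of longer IFITM1 transcripts and ends at the base before the next annotated IFITM1 exon, and the IFITM3 stretch (250 bases) ends at the base before its RefSeq start. Each is written on its gene's strand. The capitals mark the GAAA letters of the IFITM3 cores, and the IFITM1 stretch ends before the IFITM1 cores.
IFITM1, chr11:313790-313996, + strand: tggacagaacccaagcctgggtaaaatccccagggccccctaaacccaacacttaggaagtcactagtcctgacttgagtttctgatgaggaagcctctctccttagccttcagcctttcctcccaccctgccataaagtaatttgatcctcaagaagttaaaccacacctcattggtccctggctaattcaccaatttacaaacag
IFITM3, chr11:320861-321110, - strand: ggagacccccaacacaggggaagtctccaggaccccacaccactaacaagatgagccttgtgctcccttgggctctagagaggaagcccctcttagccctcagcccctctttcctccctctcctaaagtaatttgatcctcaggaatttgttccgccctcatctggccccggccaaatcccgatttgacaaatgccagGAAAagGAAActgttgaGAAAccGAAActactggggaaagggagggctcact

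Over the 250 bases before their RefSeq starts, IFITM1 and IFITM3 were identical in 179 of 268 columns of a global alignment (66.8%). The other pairs among IFITM1, IFITM3, IFITM5 and BST2 had between 47.0% and 50.2% identical columns, so IFITM1 and IFITM3 were the most alike of the 6 pairs.

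At the IFITM3 peak the signal was higher with IFN-β than without. IFITM3, the member best known for blocking influenza virus in endosomes, had the strongest peak of the cluster (chr11:319682-320682, over an IFITM3 exon and the lncRNA gene ENSG00000251661, center 312 bp from a start). This peak lies inside the gene and ends short of the RefSeq start. The authors' mean log2 signal, the log2 of normalized reads per library, was 5.02 in the unstimulated group and 5.67 in the IFN-β group. The difference was 0.65 on the log2 scale, or 1.57-fold. Every value here is a mean of 2 libraries without a value per library, so no SD can be given and no test between libraries was run. Read steps at the low end of the table gave the relative sizes of the libraries, from which this peak rests on about 74.1 reads in the 2 unstimulated and 153.4 in the 2 IFN-β libraries. The 95% counting interval of the difference, which covers counting error only and not the spread between libraries, was 0.24 to 1.07 and lay above 0.

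IFITM2, which shares much of its protein sequence with IFITM3, had a weaker peak (chr11:307805-308805, over an IFITM2 exon, center 15 bp from a start). Its log2 signal was 2.78 in the unstimulated group and 3.17 in the IFN-β group, a difference of 0.39 (1.31-fold). About 15.7 reads stood behind the former value and 27.1 behind the latter, and the counting interval of -0.56 to 1.39 included 0. A difference from 0 was therefore not detectable for IFITM2 at this depth. The interval lay above the median difference of all peaks (-0.69) but included that of the peaks of like signal (-0.42).

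IFITM1 had 2 peaks, both close to the lowest value of the table. The peak at its RefSeq start (chr11:313862-314862, center 56 bp from an annotated start) had a log2 signal of 0.47 without and 0.73 with IFN-β, a difference of 0.26. With the lowest value in the table taken as 1 read per library, these values correspond to 2 reads and 1 read in the unstimulated libraries. In the IFN-β libraries they correspond to 2 and 3 reads. A library with 1 read on this scale may have held fewer. The peak near the upstream start (chr11:309803-310803, center 262 bp from it) went from 0.47 to -0.01, a difference of -0.48, on 2 reads and 1 read in each group by the same reading. The counting intervals were -2.07 to 2.87 and -3.36 to 2.35, so neither direction was detectable at IFITM1.

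**Figure D1:**
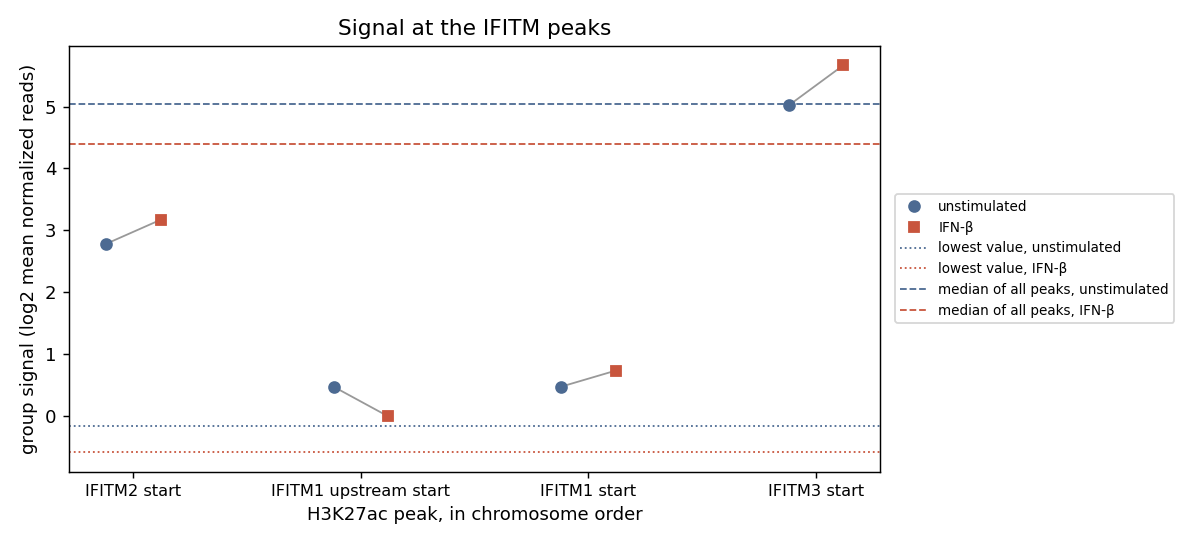
Group signal (log2 of mean normalized reads per library) at the 4 IFITM peaks in chromosome order. Circles show the unstimulated and squares the IFN-β group, dotted lines the lowest and dashed lines the median value of all peaks in each group. IFITM3 moves from 5.02, near the unstimulated median of 5.04, to 5.67, above the IFN-β median of 4.39, and both IFITM1 peaks sit near the lowest values.

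**Figure D2:**
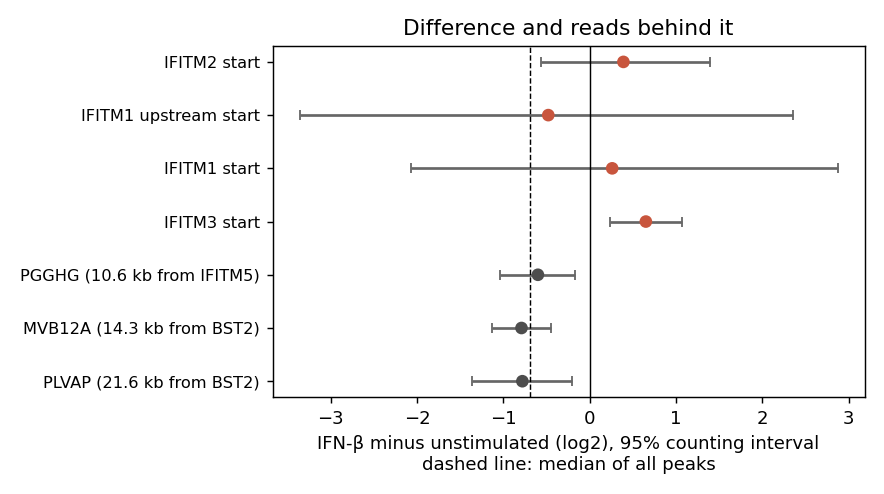
Difference (IFN-β minus unstimulated, log2) with its 95% counting interval at the 4 IFITM peaks and the 3 nearest peaks outside the 10 kb limit. The IFITM3 interval of 0.24 to 1.07 lies above 0, the other IFITM intervals include 0, and the 3 outer peaks lie near the dashed line at the median of all peaks, -0.69.

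IFITM5 had no peak of its own, and its 1 annotated start lies 8.8 kb from the center of the IFITM2 peak, which is counted for IFITM5 only through that distance. BST2 had no peak within 10 kb of any of its 3 annotated starts, although its promoter holds 2 response element cores. The peak nearest to BST2 is centered 14.3 kb away and 144 bp from a start of MVB12A, a gene of endosomal sorting, with a log2 signal of 6.23 without and 5.44 with IFN-β (difference -0.79, counting interval -1.13 to -0.45). The next is centered 21.6 kb from BST2 and had 4.75 and 3.97 (difference -0.78). The table thus gives no H3K27ac value at BST2 in either group. BISPR also had no peak within 10 kb of a start.

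Just inside the 10 kb limit there was no borderline peak, since all 4 centers lay within 312 bp of a start. Just outside it was the peak at PGGHG, which encodes a glucosidase, 10.6 kb from IFITM5, with a log2 signal of 5.42 without and 4.82 with IFN-β (difference -0.60).

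The differences have to be read against the rest of the table, in which most peaks were lower with IFN-β. The median difference over all 20087 peaks was -0.69 (SD across peaks 0.46). Of all peaks 5.93% had a higher value with IFN-β, compared with 3 of the 4 IFITM peaks, of which only IFITM3 had an interval clear of 0. A difference at least 1 above the median was found in 2.51% of all peaks and in 2 of the 4 IFITM peaks, IFITM3 at 1.34 above the median and IFITM2 at 1.08. The IFITM1 start peak was 0.95 and the upstream IFITM1 peak 0.21 above it. The median difference of the 4 peaks was 0.32.

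The IFITM3 peak ranked 178 of 20087 peaks by difference and 8 of the 994 peaks on chromosome 11. Weak peaks scatter more, so it was also set beside peaks of like signal. In its decile by mean signal the median difference was -0.71, 35 of 2009 peaks (1.74%) were higher with IFN-β, and IFITM3 ranked 7. In the decile with the weakest signal, which holds the IFITM2 peak and both IFITM1 peaks, 308 of 2009 peaks (15.3%) were higher with IFN-β, and IFITM2 ranked 140, the IFITM1 start peak 177 and the upstream IFITM1 peak 1092. Without IFN-β the signal of IFITM3 was higher than that of 49.4% of all peaks, and with IFN-β higher than that of 87.4%. For IFITM2 these shares were 5.2% and 19.2%. Over the 4 peaks together the summed signal was 42.1 normalized reads without and 62.6 with IFN-β, a log2 difference of 0.57 (counting interval 0.21 to 0.94), and the IFITM3 peak made up 77.1% and 81.4% of these sums.

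**Figure D3:**
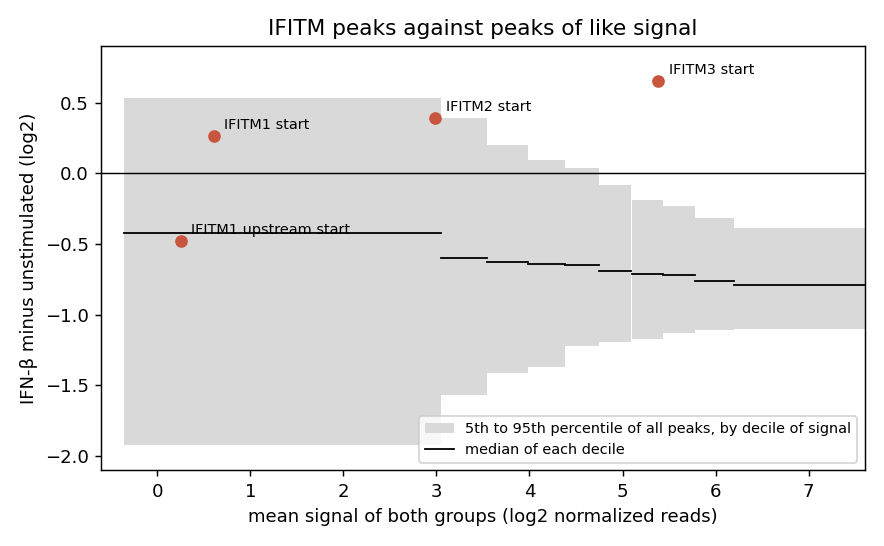
Difference (IFN-β minus unstimulated, log2) against the mean signal of both groups (log2 normalized reads) for the 4 IFITM peaks. Gray bands span the 5th to 95th percentile of all peaks in each decile of signal and black lines their medians. IFITM3 lies well above its band, whose upper edge is -0.19, while IFITM2 and the IFITM1 peaks lie within the wide band of the weakest decile, which ends at 0.53.

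The peaks beside both loci were described in the same way. Within 200 kb of the IFITM starts there were 13 other peaks, and 0 of them had a higher value with IFN-β, which is near the share of 5.93% among all peaks. Their differences ranged from -1.24 to -0.42 with a median of -0.76. The differences of the IFITM2, IFITM1 start and IFITM3 peaks lay above this range, whereas the upstream IFITM1 peak at -0.48 fell inside it. Only the counting interval of IFITM3 (0.24 to 1.07) was clear of the range. Those of IFITM2 (-0.56 to 1.39) and the IFITM1 start peak (-2.07 to 2.87) reached into it. The highest of the 13 were -0.42 at a peak 13687 bp from a start of B4GALNT4 and -0.55 at PTDSS2. The lowest were -1.24 at ANO9 and -0.94 at a weak peak 17328 bp from SCGB1C1. PKP3, which encodes a desmosome plaque protein, had the strongest unstimulated signal of these peaks (6.98), with a difference of -0.73. Around BST2, 30 peaks lay within 200 kb and 0 of them were higher with IFN-β, again near the 5.93% of all peaks. Their differences ranged from -1.48 to -0.37 with a median of -0.72, close to the -0.69 of all peaks. The highest were at ANKLE1 (-0.37) and ABHD8 (-0.38, at 2062 bp from a start), and the lowest at ABHD8 (-1.48, at 247 bp) and USE1 (-1.39, at 4900 bp).

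**Figure D4:**
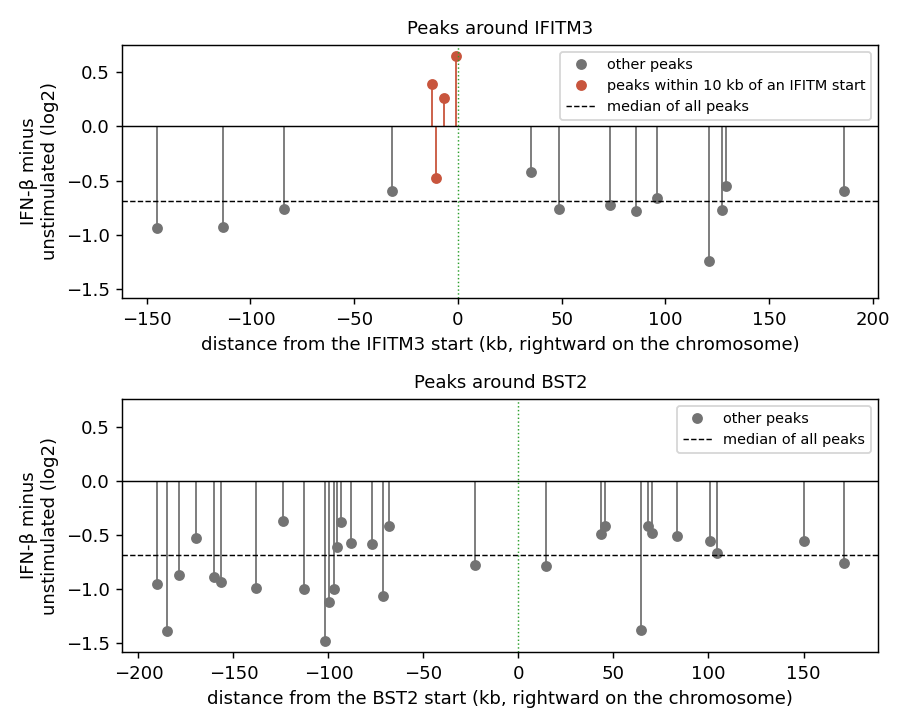
Difference (IFN-β minus unstimulated, log2) of each peak within 200 kb, by distance in kb from the IFITM3 start (top) and from the BST2 start (bottom). The 4 IFITM peaks are in red, with 3 above 0. The 13 other peaks around the cluster and all 30 around BST2 lie below 0, near the dashed median of all peaks at -0.69.

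The IFITM peaks had few CpG dinucleotides for their base composition. Their GC content lay between 56.4% and 59.4%, compared with a range of 49.4% to 82.9% with a median of 69.4% for the 13 neighboring peaks and 58.1% for all peaks. Their ratio of observed to expected CpG dinucleotides lay between 0.28 and 0.34, against a median of 0.66 over all peaks. Among the 366 peaks within 1 kb of a protein-coding start with a ratio of at most 0.34, a limit set after the values were seen, 46 (12.6%) were higher with IFN-β and the median difference was -0.54. Among all 10179 peaks within 1 kb of such a start, 245 (2.41%) were higher. The part of CpG content in the differences was not tested.

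Of the 4 IFITM peaks, only the IFITM1 start peak held response element cores within 500 bp of its center. The IFITM3 peak ends 204 bp short of the nearer of the 2 cores at the IFITM3 start, and the IFITM2 peak held no exact core. Over all peaks, 11.6% held a core in such a window. Within 10 kb of any IFITM start there were 9 cores in 50.0 kb, or 1.80 per 10 kb, compared with 2.24 per 10 kb over chromosome 11. Within 10 kb of a BST2 start there were 7 in 21.1 kb, or 3.32 per 10 kb, compared with 2.55 per 10 kb over chromosome 19. None of the 7 cores around BST2 lay in a peak. The STAT family motif TTCNNNGAA was found once in each IFITM1 peak and not in the IFITM2 and IFITM3 peaks (21.8% of all peaks held it). The GC box GGGCGG was found in all IFITM peaks but that of IFITM2 (67.3% of all peaks). In the RefSeq windows TTCNNNGAA occurred once at IFITM1 and at 2 places at BST2 (7.66% of all promoters), and GGGCGG once each at IFITM3 and IFITM5 (15786 of the 35116 promoters). The one TTCNNNGAA in the IFITM1 window and one of those at BST2 overlap a response element core in part.

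**Figure D5:**
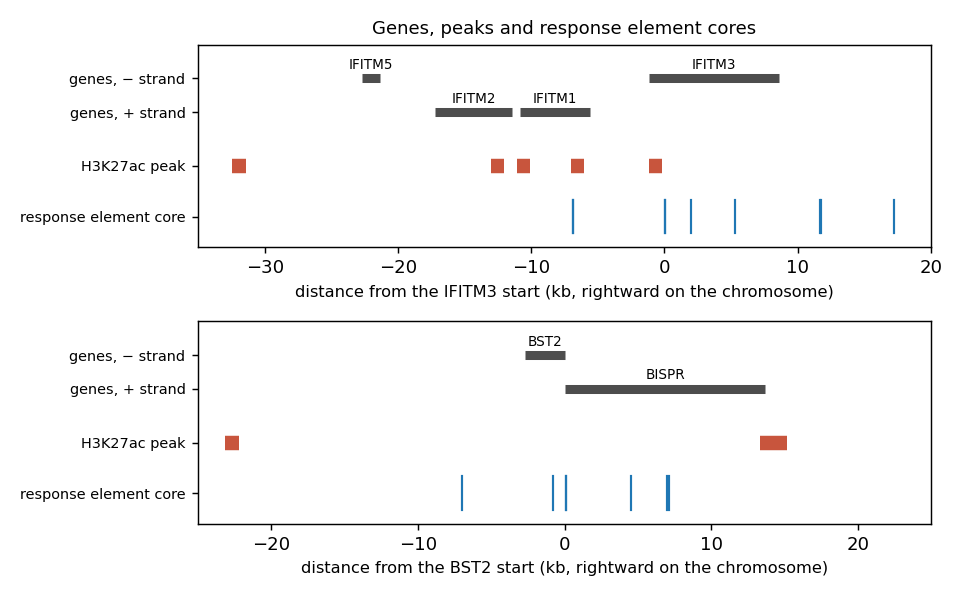
Genes (by strand), H3K27ac peaks and response element cores by distance in kb from the IFITM3 start (top) and from the BST2 start (bottom). Cores are shown within 10 kb of a start of the 5 genes. Peaks lie at annotated starts of IFITM2, IFITM1 and IFITM3, and BST2 has cores at its start but no peak there. The IFITM3 peak spans -1.18 to -0.18 kb, short of the start at 0, and the IFITM3 cores fall just beside this peak.

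The IFITM genes are near copies of each other, which bears on where reads can be placed. Of the 75-base stretches in the IFITM3 peak, 75 bases being the read length in the labels, 26.9% had a second identical place in the reference. The share was 17.2% in the IFITM2 peak, 15.4% in the IFITM1 start peak and 46.1% in the upstream IFITM1 peak, and every one of these stretches had such a copy within 200 kb. In 12 of the 13 neighboring peaks it was 0%, and over 500 bp either side of the BST2 start it was also 0%. The design text of the series gives a longer read length than the sample labels, for which these shares were not computed. How the authors treated reads with several places is not given in the sources used here. Values of IFITM2, IFITM1 and IFITM3 may therefore share or lack such reads, and the part of this in the signal and in the differences was not tested.

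Other genes of the response were taken from lists. Among genes of the type I interferon receptor and the ISGF3 complex, IRF9 had a difference of 1.29 (counting interval 0.92 to 1.67) and STAT2 one of 0.46 (interval 0.13 to 0.80), both at least 1 above the median of all peaks. The kinase genes of the receptor were lower with IFN-β, with -0.47 at JAK1 and -0.41 at TYK2. The 2 receptor chains were also lower, with differences of -0.66 at IFNAR1 and -0.67 at IFNAR2. The IFITM3 difference of 0.65 thus lay between those of STAT2 and IRF9, and its counting interval overlapped both of theirs.

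Of 10 further genes that act on viruses at membranes, 5 had a peak within 10 kb, and their median difference was -0.76. SERINC3, which encodes a protein that lowers the infectivity of retroviruses, had a difference of 0.12 (interval -0.41 to 0.66), and ZMPSTE24, a protease that works with IFITM proteins, had -0.51. NCOA7 had -1.19 and SERINC5 -0.90. IFITM10, CH25H, RTP4, GBP2 and GBP5 had no such peak. Of 7 genes whose products modify or bind IFITM proteins or lie beside BST2, 6 had a peak, 0 were higher with IFN-β (5.93% of all peaks were) and the median difference was -0.90, compared with -0.69 over all peaks. They ranged from -1.13 at ITCH, a ubiquitin ligase, to -0.13 at NEDD4, the ubiquitin ligase that acts on IFITM3. ZDHHC7, which encodes a palmitoyltransferase, had -0.65, and ZDHHC3, another of that family, had -0.97.

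Among 11696 protein-coding genes outside both loci with a peak within 1 kb of a start, those with group signals closest to IFITM3 were SP100 (4.96 without and 5.58 with IFN-β, distance 0.108 in log2 units over the 2 group means), LAP3 (4.86 and 5.68, distance 0.160) and PLSCR1 (5.20 and 5.66, distance 0.180). For IFITM2 they were RAP1GAP2 (2.77 and 3.22, distance 0.051), HSD17B14 (2.72 and 3.17, distance 0.060) and PRR36 (2.82 and 3.27, distance 0.108). Within a distance of 0.5 there were 26 genes for IFITM3, 97 for IFITM2 and 1 for IFITM1, namely MAMLD1 (0.35 and 0.43). The next for IFITM1 were CCZ1B and GPR89A, each with 0.92 and 0.40 and at a distance of 0.558.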

How the data were processed

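H3K27ac ChIP-seq was carried out on 500000 cells fixed in 1% formaldehyde for 10 min. The authors trimmed reads with fastp (version 0.19.3 per the labels), aligned them to GRCh38 with bowtie2, called peaks per library with MACS2 against the input, and merged, counted and normalized them for library size with DiffBind and DESeq2. The deposited table gives, per peak, the log2 of mean normalized reads over the 4 H3K27ac libraries and over each group of 2. Its fold-change, p-value and FDR columns hold the authors' own comparison and were not used, so no test was run.

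The difference is the IFN-β minus the unstimulated log2 value, both rounded to 2 decimals as deposited. Relative library sizes were read from steps of whole reads in the lowest values, with the lowest value taken as 1 read in both libraries of a group. A count below 1 that was raised to 1 would look the same. They were 1.47 and 1.54 for IFN-β (93.9% of 147 low values on a step within 0.0075) and 1.00 and 1.28 for the control (100% of 88). Counting intervals are exact binomial (Clopper-Pearson) intervals at 95% on the reads these sizes imply, and input reads that DiffBind may have subtracted are not restored. Library sizes and intervals were tested on simulated tables.

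Sequences came from the GRCh38 reference, leaving out alternate contigs, and from RefSeq, within 500 bp of peak centers. All 39 sequence names of the table matched. Python 3.11.15, numpy 2.4.6, pandas 2.3.3, scipy 1.17.1, pysam 0.24.0 and matplotlib 3.10.9 were used. Genes and lists were chosen with earlier results of these data known. Named are the 5 genes and their peaks, the 2 highest and 2 lowest peaks within 200 kb at each locus, up to 4 genes per list, and the 3 genes most like each member with a peak within 1 kb of a start. PKP3, PGGHG, MVB12A, STAT2, JAK1, TYK2, KRT8, KRT18, EPCAM, CDX2, CDH1 and genes without a peak were named beyond this rule, and some genes of the lists are not reported here. Alternatives changed the distance, the start sites, the position of a peak, the centering, the combination of peaks and the background.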

Additional observations from a re-analysis of the deposited data

How the results depend on the processing

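A limit of 1 or 5 kb, any base of a peak within 10 kb, and the 5′ ends of the genes only each gave 4 peaks, while 25 kb gave 7, with a median difference of -0.48 in place of 0.32, since the added peaks lie at other genes. Centering moved the median difference of the 4 peaks to 1.02 against the median of all peaks, 0.74 against peaks of like signal and 1.04 against peaks of like GC content, and an added normalized read moved it to 0.25. The IFITM3 difference became 1.34, 1.36 and 1.38 under these centerings. Its counting interval was computed for the uncentered difference and would shift by the same amount, so these values cannot be set against it. The centerings subtracted negative medians and an added read cannot reverse a difference, so under these no peak above 0 could change direction. Combining all peaks within 10 kb of a gene's starts could, and gave 0.64 for IFITM3, 0.27 for IFITM2 and 0.57 for IFITM1. These sums share peaks, and the IFITM1 sum includes the IFITM3 peak. IFITM5 has only the IFITM2 peak, at 0.39. The share of peaks higher with IFN-β was 1.6% among peaks with at least the median mean signal, 2.41% within 1 kb of a protein-coding start and 12.6% among the start peaks poor in CpG, the last added after the data were examined. Of the 4 IFITM peaks, 3 or 4 were higher under each alternative. No paired analysis was possible because the table holds no value per library, and for the same reason no library could be left out. At IFITM1 and IFITM2 the number of reads limits what can be said, and at IFITM5 and BST2 the lack of a peak.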
